A study of Mus musculus with 9 samples.

Results

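The count table of a mouse myocardial infarction study holds 24964 genes. A chosen list of 10 imprinted genes that regulate growth is described here. All 10 were found by symbol: H19, Meg3, Rian, Mirg, Dlk1, Peg3, Plagl1, Mest, Ndn and Grb10. RNA was sequenced in bulk from 9 hearts of male C57BL/6JR mice given as 8 weeks old, with 3 mice in each of 3 groups. In the MI 7 d and MI 28 d groups a silk thread was tied around the left anterior descending artery under isoflurane, which causes a myocardial infarction (MI), and the groups are named for the days after it. Sham mice had the operation but no ligation, and the sources used here give no time for their hearts. The labels name no genotype beyond the strain and no other agent, and they give the tissue only as heart, without the region sampled.

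An imprinted gene is transcribed mainly from 1 parental copy, because methylation laid down in the egg or the sperm marks the copies differently. Many imprinted genes are strongly expressed in the embryo and placenta, act on growth in opposite ways, and fall to low levels in most adult tissues. In mice H19, Meg3, Rian and Mirg are expressed from the maternal copy, as is Grb10 in most tissues outside the nervous system, whereas Dlk1, Peg3, Plagl1, Mest and Ndn are expressed from the paternal copy. The counts do not separate the parental copies, so nothing here measures imprinting itself.

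At 7 d all 9 members that could be tested rose, from maternal and paternal sets alike. Of all tested genes 39.0% were called higher at 7 d and 35.4% lower, and the members were chosen with earlier results of these data known. By 28 d the members had come apart. Meg3, Rian and Mirg, long non-coding RNAs of the Dlk1-Dio3 domain, were still 3.84-fold to 15.2-fold above sham. The 15.2-fold is that of Mirg, which had only 4 counts in the sham hearts in all. H19 was back in the sham range on average, with hearts that differed 9.86-fold, and Mest, which had risen at 7 d, stood below every sham heart. Dlk1, the protein-coding gene at the other end of the domain from Mirg, had too few counts to pass the filter on low values (filterByExpr). Its values are given as counts.

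Total counts lay between 12351525 and 13629120 per sham library, between 18355720 and 19238101 per 7 d library and between 15300344 and 15770389 per 28 d library. Levels are given as CPM, counts relative to a library total that was scaled by the trimmed mean of M values (TMM). Differences are log2 fold changes ± their standard error from edgeR's quasi-likelihood test, with p adjusted over the 14347 tested genes. The sham libraries were closely alike, with a biological coefficient of variation of 2.73% against 17% at 7 d and 24.2% at 28 d. In 3 libraries, MI 7 d replicate 3 and MI 28 d replicates 1 and 3, Adipoq, the fat cell hormone adiponectin, lay above 100 CPM, against 0.422 to 3.12 CPM in the others. The cardiomyocyte markers that define heart tissue were high in all libraries. Their summed level over 9 genes was 104112 to 107155 CPM in the sham hearts, 13803 to 17598 CPM at 7 d and 35896 to 62854 CPM at 28 d.

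Several members are also hosts of microRNAs, so a host transcript and a small regulator share a locus. On GRCm38 the hairpins of 17 miRNAs lie within H19, Meg3, Rian, Mirg and Mest, and RefSeq lists 32 mature sequences for them, all on the strand of the host. The following were chosen to show both arms of the H19 hairpin, at least 1 sequence from each other host and the only seed that was shared. Capitals mark the seed, bases 2 to 8.
mmu-miR-675-5p: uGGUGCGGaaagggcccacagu
mmu-miR-675-3p: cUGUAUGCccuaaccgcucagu
mmu-miR-770-3p: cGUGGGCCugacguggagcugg
mmu-miR-370-3p: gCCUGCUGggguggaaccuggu
mmu-miR-453: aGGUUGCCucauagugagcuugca
mmu-miR-496a-5p: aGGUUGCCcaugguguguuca
mmu-miR-410-3p: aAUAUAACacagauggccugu
mmu-miR-335-5p: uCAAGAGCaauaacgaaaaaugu
The 32 sequences held 31 different seeds. Only GGUUGCC occurred more than once, in miR-453 and miR-496a-5p, both within Mirg. These sequences were not measured: the counts below are of host transcripts, and the rows of the 10 hairpins within Mirg held 1 count in sham hearts, 15 at 7 d and 6 at 28 d in all. The hairpin rows within H19, Meg3 and Rian held 0 counts in every group, and that within Mest held 1 at 7 d.

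H19 is a maternally expressed RNA that is abundant in the fetus and shares its control region with Igf2. It lies on the minus strand at chr7:142575530-142578146. H19 measured 17.7, 13.3 and 19.6 CPM in the sham hearts, 165, 209.8 and 95.8 CPM at 7 d, and 16.9, 36.0 and 3.65 CPM at 28 d. Every 7 d heart was above every other heart, and the 28 d hearts lay on both sides of the sham range. H19 rose by 3.22 ± 0.62 on the log2 scale at 7 d, which is 9.29-fold (edgeR adjusted p = 0.00102). At 28 d its difference from sham was 0.15 ± 0.61 (edgeR adjusted p = 0.849), and from 7 d to 28 d it fell by 3.06 ± 0.61 (edgeR adjusted p = 0.00215). Without the 3 Adipoq-rich libraries, which leaves only MI 28 d replicate 2 at 28 d, H19 was 1.08 above sham (edgeR adjusted p = 0.000953).

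Igf2, the growth factor gene that neighbours H19 and is expressed from the opposite parental copy, did not pass the test in any comparison. Its levels were 42.0, 28.8 and 38.7 CPM in the sham hearts, 35.4, 67.6 and 34.5 CPM at 7 d and 31.6, 46.2 and 7.23 CPM at 28 d. The 7 d difference of Igf2 from sham was 0.33 ± 0.52 (edgeR adjusted p = 0.583). Counts of H19 were below those of Igf2 in all 6 sham and 28 d libraries and above them in all 3 at 7 d. The log2 ratio of H19 to Igf2 counts was -1.11 ± 0.13 in sham hearts, 1.78 ± 0.39 at 7 d and -0.75 ± 0.34 at 28 d (SD, n = 3 each). The 7 d and sham ratios differed by 2.89 with no overlap (two-sided exact permutation p = 0.10, the smallest that 3 against 3 allows; adjusted 0.214 over the 15 ratio comparisons made). At 28 d replicate 3 had the lowest level of both genes.

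Markers of skeletal muscle, in which H19 is also expressed after birth, did not move 1 way. Over 9 skeletal muscle and satellite cell markers the summed level lay between 941 and 1485 CPM in the sham group, 181 and 298 CPM at 7 d and 364 and 2037 CPM at 28 d. Most of it is Acta1, the skeletal actin that cardiomyocytes also make, which averaged 1145 CPM in the sham group against 212 CPM in the 7 d group. Of the 4 markers tested 2 rose at 7 d, Tnnt3 from 0.205 to 6.04 CPM and Tnni2 from 1.26 to 3.11 CPM, and Acta1 fell. Pax7 and Myf5, which define satellite cells, were at 0 in all 9 libraries. The part of such cells in the H19 counts was not tested.

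Meg3, Rian and Mirg lie in this order on the plus strand of chromosome 12, at chr12:109540996-109571729, chr12:109603945-109661716 and chr12:109734981-109749458. They are maternally expressed non-coding transcripts; Rian also hosts small nucleolar RNAs, and Mirg hosts a large microRNA cluster. Meg3, known for restraining growth and as a partner of the Polycomb repressor PRC2, measured 8.98, 10.2 and 10.1 CPM in the sham hearts, 116, 148 and 108 CPM at 7 d, and 35.1, 61.6 and 123 CPM at 28 d. All 6 infarcted hearts were above all sham hearts, and MI 28 d replicate 3 was within the 7 d range. Meg3 rose by 3.67 ± 0.41 at 7 d (edgeR adjusted p = 2.46e-05) and was 2.91 ± 0.41 above sham at 28 d (edgeR adjusted p = 0.000360). Its difference between 28 d and 7 d, -0.76 ± 0.35, did not pass (edgeR adjusted p = 0.0956). That call turned on 1 library: without MI 28 d replicate 3 Meg3 fell by 1.36 from 7 d to 28 d (edgeR adjusted p = 0.000396). It also passed at -0.93 with voom (limma adjusted p = 0.0309), and at -0.89 with the replicate number as a block (edgeR adjusted p = 0.0427). Without the Adipoq-rich libraries the difference was -1.10. That fit also drops MI 28 d replicate 3 and leaves 1 heart at 28 d, so it adds no separate evidence.

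Rian varied least of the 10 within the sham group and within the 7 d group, with coefficients of variation of 1.88% and 1.47%. It had 82, 80 and 84 counts in the sham hearts and 1205, 1185 and 1184 at 7 d. Counting error alone would give a wider spread at such counts, so these coefficients do not measure how closely the hearts agreed. It measured 7.15, 7.35 and 7.10 CPM in the sham hearts, 57.9, 58.6 and 56.9 CPM at 7 d, and 17.7, 20.3 and 44.8 CPM at 28 d. The 3 groups did not overlap. Rian rose by 3.01 ± 0.32 at 7 d (edgeR adjusted p = 1.72e-05), was 1.94 ± 0.32 above sham at 28 d (edgeR adjusted p = 0.000831), and fell by 1.06 ± 0.28 between the times (edgeR adjusted p = 0.0103).

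Mirg rests on few reads in sham hearts, with 1, 1 and 2 counts. It passed the filter on low values only through its counts in the infarcted hearts. At 7 d it had 50, 40 and 44 counts and at 28 d 21, 35 and 36, so every infarcted heart was far above every sham heart. Per scaled library its counts were 18.5 times those of sham at 7 d (95% counting interval 7.07 to 69.0) and 16.2 times at 28 d (6.12 to 60.8). These intervals cover counting error only. In the fit Mirg rose by 4.12 ± 0.39 at 7 d (edgeR adjusted p = 6.95e-06) and by 3.93 ± 0.39 at 28 d (edgeR adjusted p = 7.32e-05). Its difference between the times was -0.20 ± 0.25 (edgeR adjusted p = 0.522).

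Dlk1 encodes a membrane protein related to the Notch ligands that restrains the formation of fat cells, and lies upstream of Meg3 on the plus strand at chr12:109452485-109463336. It had 1, 3 and 0 counts in sham hearts, 6, 8 and 47 at 7 d, and 7, 4 and 7 at 28 d. Of the 61 counts at 7 d, 47 came from MI 7 d replicate 3. The 7 d to sham ratio was 8.43 (95% counting interval 3.13 to 31.9), and 2.92 (0.916 to 12.2) over replicates 1 and 2 alone. With no filter on low counts Dlk1 was 2.99 ± 1.03 above sham at 7 d (edgeR adjusted p = 0.0279) and 1.59 ± 1.15 above it at 28 d (edgeR adjusted p = 0.315). MI 7 d replicate 3 is also the 7 d library with high Adipoq, 217 CPM against 0.529 and 3.12 CPM in the other 2. Its sum over 9 adipocyte markers was 2390.0 CPM against 192 and 189.9 CPM. The sham sums were 661 to 678 CPM, of which Fabp4 averaged 602 CPM and Adipoq 1.13 CPM. The sum therefore does not follow Adipoq at low values. At 28 d the adipocyte sums were 1678, 273 and 1374 CPM beside 7, 4 and 7 counts of Dlk1. The part of fat cells in the Dlk1 count was not tested.

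Ratios of the maternal transcripts within a library do not depend on its scaling. None of the ratio tests could pass, since 3 against 3 gives 0.10 at best. The log2 ratio of Rian to Meg3 counts was -0.43 ± 0.09 in sham hearts, -1.09 ± 0.22 at 7 d and -1.35 ± 0.32 at 28 d (SD, n = 3 each). Every infarcted heart was below every sham heart, by 0.66 on average at 7 d and 0.92 at 28 d (exact permutation p = 0.10 and adjusted 0.214 for each). Mirg to Rian went from -5.54 ± 0.40 through -4.73 ± 0.15 to -3.75 ± 0.61, again with no overlap between any groups (exact permutation p = 0.10 for each pair, adjusted 0.214). The sham value of that ratio rests on 4 counts of Mirg, and with an offset of 2 counts in place of 0.5 the 7 d difference of 0.81 became -0.01. Between 28 d and 7 d, where counts were higher, the difference was 0.98. Mirg to Meg3, at -5.97 ± 0.34, -5.82 ± 0.35 and -5.10 ± 0.67, overlapped between all groups (exact permutation p = 0.70 for 7 d and 0.20 for 28 d against sham). The ratio of Dlk1 to Meg3 also overlapped between all groups.

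**Figure D1:**
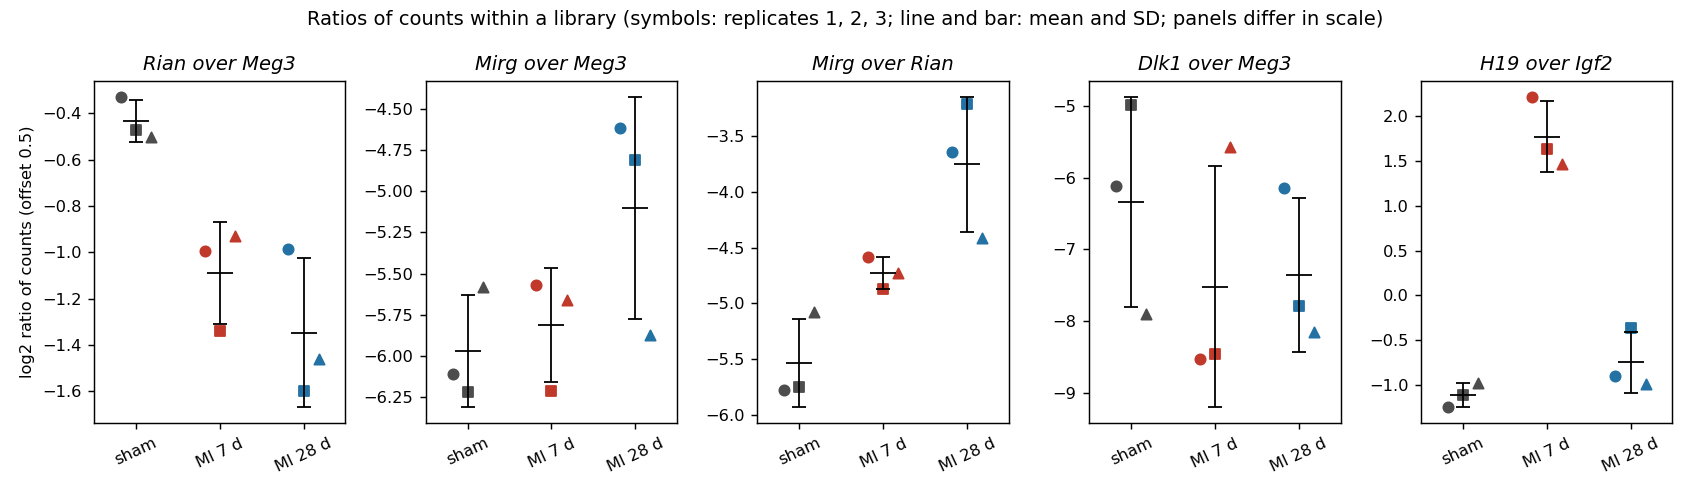
Log2 ratios of counts within each library for 5 pairs of genes, with an offset of 0.5 counts; symbols are the 3 libraries of a group, and lines with bars are mean and SD. Rian over Meg3 is lower in all 6 infarcted hearts than in sham hearts, and H19 over Igf2 is above 0 in the 3 hearts at 7 d only.

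Other genes of the domain were read beside the members. Dio3, the deiodinase that inactivates thyroid hormone at the far end of the domain, had 2, 0 and 3 counts in sham hearts, 51, 34 and 37 at 7 d and 7, 9 and 19 at 28 d. Dio3 rose by 3.69 ± 0.60 at 7 d (edgeR adjusted p = 0.000331) and was 2.23 ± 0.67 above sham at 28 d (edgeR adjusted p = 0.0183). The 28 d call of Dio3 was lost without MI 28 d replicate 3 (edgeR adjusted p = 0.0576) and without the Adipoq-rich libraries (edgeR adjusted p = 0.110). Begain rose by 2.10 at 7 d and 2.02 at 28 d, the latter lost without the Adipoq-rich libraries (0.97, edgeR adjusted p = 0.125). Wdr25 fell by 0.86 at 7 d, so not every neighbour moved up. Rtl1, which lies antisense to the maternal transcripts, had 37 counts in 9 libraries and was not tested; the strand setting of the counting is not given, so reads of overlapping antisense genes cannot be told apart.

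Plagl1, Peg3 and Ndn are paternally expressed regulators in the nucleus, at chr10:13090832-13131694 (plus strand), chr7:6703892-6730462 (minus) and chr7:62348277-62349928 (plus). Plagl1 is a zinc finger factor that restrains the cell cycle and binds near many other imprinted genes. It measured 4.62, 4.32 and 6.08 CPM in the sham hearts, 16.2, 38.5 and 16.2 CPM at 7 d, and 6.83, 10.9 and 10.4 CPM at 28 d. No group overlapped another, and MI 7 d replicate 2 stood well above the other hearts of its group. Plagl1 rose by 2.23 ± 0.37 at 7 d (edgeR adjusted p = 0.000341) and fell by 1.33 ± 0.34 from then to 28 d (edgeR adjusted p = 0.00829). At 28 d the difference from sham was 0.90 ± 0.37 and missed the threshold (edgeR adjusted p = 0.0639). It passed with DESeq2 (0.87, DESeq2 adjusted p = 0.0321), and in edgeR with library size alone, the compared libraries alone, the replicate block and without MI 28 d replicate 1 (0.86 to 1.16, edgeR adjusted p = 0.0135 to 0.0441).

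Peg3, a zinc finger protein that affects growth and maternal behaviour, measured 7.41, 9.19 and 6.76 CPM in sham hearts. It stood at 13.9, 23.9 and 20.0 CPM at 7 d and at 10.6, 13.1 and 15.5 CPM at 28 d. All infarcted hearts were above all sham hearts, and 7 d and 28 d overlapped. Peg3 rose by 1.31 ± 0.22 at 7 d (edgeR adjusted p = 0.000430). At 28 d it was 0.75 ± 0.22 above sham (edgeR adjusted p = 0.0179), a call lost without sham replicate 1 or 3, MI 28 d replicate 3 or the Adipoq-rich libraries (0.61 to 0.74, edgeR adjusted p = 0.0526 to 0.0761). The fall of 0.56 ± 0.21 from 7 d to 28 d was near the threshold (edgeR adjusted p = 0.0473) and was lost without MI 7 d replicate 2 or 3, without MI 28 d replicate 1 or 2, without the Adipoq-rich libraries, with voom, and with only the compared libraries.

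Ndn encodes necdin, a protein that holds neurons and other cells out of the cycle. It measured 9.85, 8.73 and 10.7 CPM in the sham hearts, 30.0, 21.8 and 26.0 CPM at 7 d, and 12.01, 13.5 and 20.1 CPM at 28 d. The 3 groups did not overlap. Ndn rose by 1.41 ± 0.20 at 7 d (edgeR adjusted p = 0.000137) and fell by 0.77 ± 0.19 from 7 d to 28 d (edgeR adjusted p = 0.00753). The 28 d difference from sham, 0.64 ± 0.20 (edgeR adjusted p = 0.0241), was lost without sham replicate 1 or 2 (edgeR adjusted p = 0.0664 and 0.0897), without MI 28 d replicate 3 (0.38, edgeR adjusted p = 0.0699) and without the Adipoq-rich libraries (0.45, edgeR adjusted p = 0.0948).

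Mest, a paternally expressed gene for a hydrolase-like membrane protein linked to growth and fat cell size, went both ways. It lies on the plus strand at chr6:30733506-30748466. It measured 11.8, 15.4 and 13.9 CPM in the sham hearts, 39.9, 39.0 and 34.8 CPM at 7 d, and 10.02, 9.42 and 7.06 CPM at 28 d. The 7 d hearts were above and the 28 d hearts below every sham heart. Mest rose by 1.47 ± 0.15 at 7 d (edgeR adjusted p = 9.94e-06), fell by 2.10 ± 0.15 from 7 d to 28 d (edgeR adjusted p = 5.52e-06), and at 28 d was 0.63 ± 0.15 below sham (edgeR adjusted p = 0.00600). Copg2, which overlaps Mest on the other strand, fell by 0.53 ± 0.09 at 7 d (edgeR adjusted p = 0.000555) and did not pass at 28 d, when its value was -0.15. Mest and Copg2 thus changed in opposite directions at 7 d, and since the strand setting is not given, reads of the part they share cannot be told apart.

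Grb10, an adaptor that binds the insulin and IGF1 receptors and damps their signal, was the most abundant member in sham hearts and changed least at 7 d. It lies on the minus strand at chr11:11930499-12037428. It measured 154, 164 and 159.8 CPM in the sham hearts, 190.3, 217 and 186 CPM at 7 d, and 159 CPM in each of the 3 hearts at 28 d. The 7 d hearts were above all others. Grb10 rose by 0.31 ± 0.08 at 7 d (edgeR adjusted p = 0.00560) and fell by 0.31 ± 0.08 from 7 d to 28 d (edgeR adjusted p = 0.00796). At 28 d its difference from sham was -0.00 ± 0.08 (edgeR adjusted p = 0.970). Library size alone as the scaling raised the median of all genes by 0.33 at 7 d and 0.25 at 28 d, and with it Grb10 was 0.24 above sham at 28 d (edgeR adjusted p = 0.0297), about as far as the median gene.

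**Figure D2:**
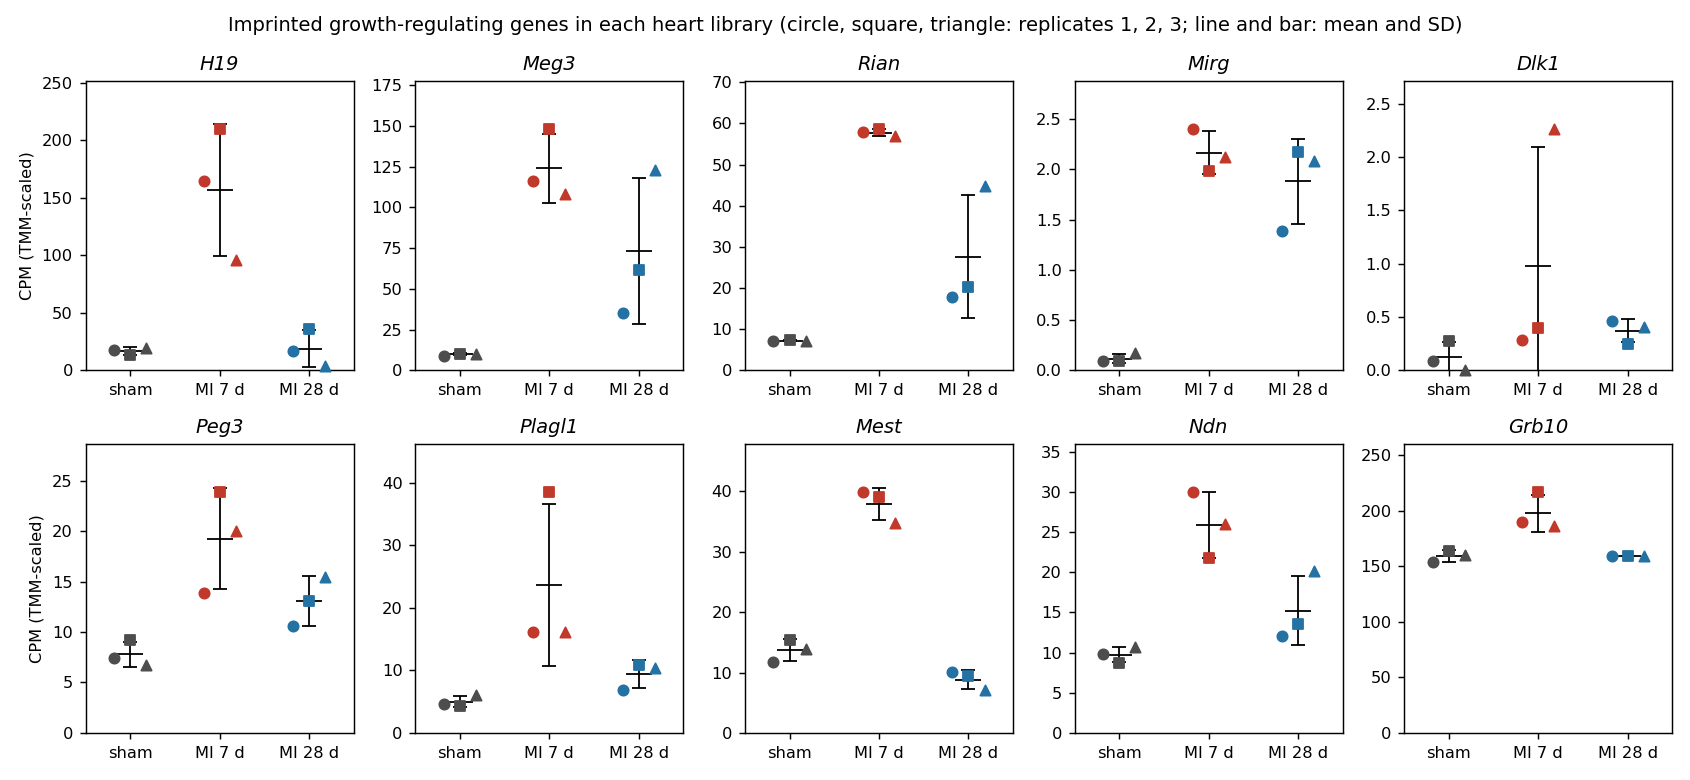
CPM of the 10 genes in each library, on linear axes from 0 with a scale for each gene; symbols are replicates 1, 2 and 3, lines and bars are mean and SD, and bars of Dlk1 are cut at 0. All 7 d hearts lie above the sham hearts, and MI 28 d replicate 3 (triangle) is highest for Meg3 and Rian and lowest for H19 and Mest at 28 d.

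In numbers, 9 of 9 tested members rose at 7 d and 0 fell, where 39.0% of all tested genes were called higher and 35.4% lower. Of these 9, Mirg passed the filter only through the infarcted hearts, where it is high, so its rise adds little to the count. All 10 members were higher in every 7 d heart than in every sham heart, as were 42.6% of all tested genes, and 38.2% were lower in the same way. The median log2 fold change of the 9 was 2.23, and that of all tested genes 0.0642. At 28 d against sham 5 rose, 1 fell and 3 did not pass, beside 29.5% called higher and 25.6% lower over all genes. With no overlap between the hearts 6 members were higher and 1 was lower, beside 34.6% and 31.8% of all tested genes. The median was 0.750 for the members and 0.0538 for all tested genes. From 7 d to 28 d 7 fell and 0 rose, beside 26.1% called lower and 29.1% higher, with medians of -0.770 and 0.0327. With no overlap 6 members were lower and 0 higher, beside 28.9% and 30.9% of all tested genes. The 5 rises at 28 d became 3 without sham replicate 1 or without MI 28 d replicate 3, when Peg3 and Ndn dropped out.

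**Figure D3:**
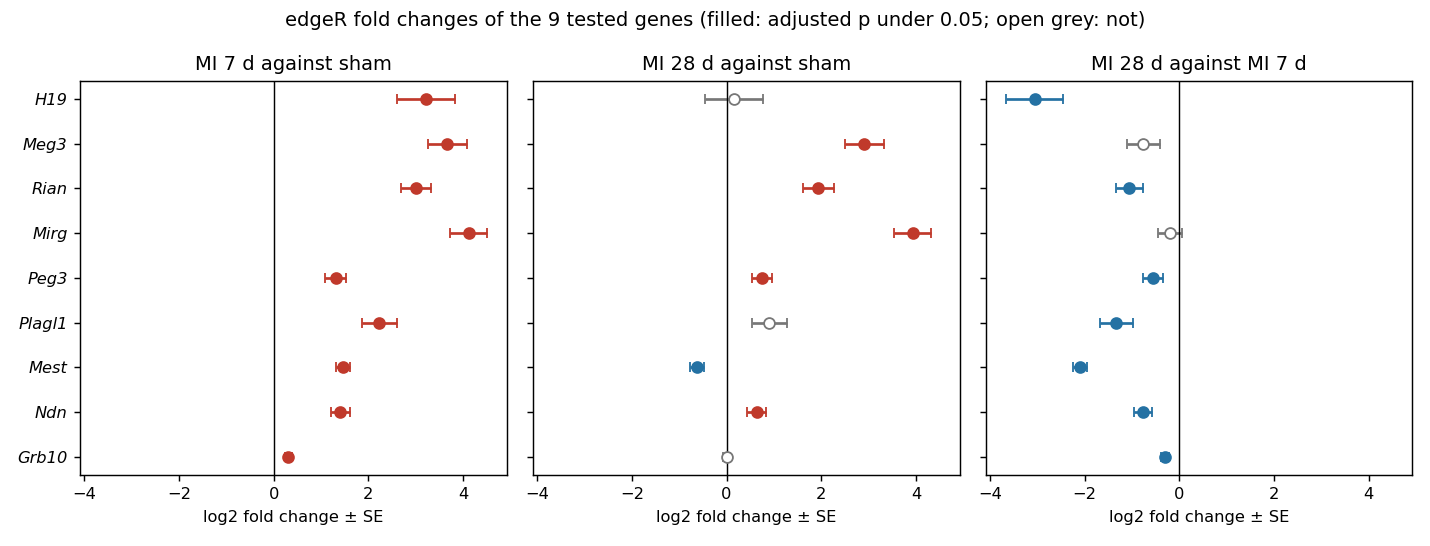
Log2 fold change with its standard error for the 9 tested genes in the 3 comparisons; filled symbols have an edgeR adjusted p under 0.05. All 9 lie above 0 at 7 d, Mest lies below 0 at 28 d, and none is above 0 from 7 d to 28 d.

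Per kilobase of exon (the union of GENCODE exons, which is long for Meg3 and Rian) the order of the levels changed with time. In sham hearts Grb10 was highest at 17.5 CPM per kb, followed by H19 at 6.86, Mest at 3.47 and Ndn at 2.65, each clear of the next in every library. Plagl1, Peg3 and Meg3 came next at 0.641, 0.584 and 0.539, with neighbours that overlapped. Rian at 0.395 was clear of both sides, and Dlk1 and Mirg, at 0.0214 and 0.0159, overlapped. At 7 d H19 led at 63.8 CPM per kb, ahead of Grb10 at 21.8, and Meg3 had reached 6.86, overlapping Ndn at 7.02. At 28 d Grb10 led again at 17.5, and the levels of H19, Ndn, Meg3, Mest, Rian, Plagl1 and Peg3 each overlapped the next, from 7.66 down to 0.981.

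The share of the 7 d excess over sham that was present at 28 d also differed between the members, as a description of mean CPM with no test. It was 86.1% for Mirg (79.1 to 98.1% when each library was left out), and for H19, Grb10 and Mest it was 1.40%, -1.28% and -20.0%, within -25.0 to 6.82% when each library was left out. The order of those between rests on single hearts. Without MI 28 d replicate 3 Meg3 went from 55.6 to 33.8%, Rian from 40.3 to 23.3% and Ndn from 33.4 to 18.3%. Peg3 stood at 45.9% (35.3 to 57.6%). Without MI 7 d replicate 2 Plagl1 went from 23.3 to 38.8%, and Dlk1, on its few counts, went from 29.2 to 114% without MI 7 d replicate 3.

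Other cell types moved with these groups. The summed level of 9 fibroblast markers was 2325 to 2389 CPM in the sham hearts, 36013 to 47037 CPM at 7 d and 6408 to 12476 CPM at 28 d, and all 9 markers rose at 7 d. The 8 macrophage markers summed to 498 to 557, 3915 to 4877 and 820.4 to 1347 CPM in the same order. At 28 d 6 of them were called above sham and 1, Cx3cr1, below it. The 8 endothelial markers summed to 2091 to 2193, 1014 to 1162 and 669 to 1353 CPM. The 9 pericyte and smooth muscle markers summed to 2083 to 2186, 2173 to 2286 and 1132 to 1674 CPM. Proliferation markers went from 73.6 to 80.7 CPM in sham hearts to 208 to 269 CPM at 7 d and 97.5 to 124 CPM at 28 d. In bulk tissue, more cells of a type and more RNA per cell cannot be told apart, and the part of these lists in the members' changes was not tested.

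At 28 d MI replicate 3, which had the highest Meg3, Rian, Peg3 and Ndn, also had the highest fibroblast sum (12476 CPM against 6408 and 8403), the highest epicardial and mesothelial sum (862 CPM against 141 and 167) and the highest Schwann cell and neuron sum (179 CPM against 32.9 and 47.4). It had the lowest cardiomyocyte sum (35896 CPM) and the lowest endothelial sum (669 CPM against 1158 and 1353). The same library had the lowest H19 and Mest, so the members did not follow 1 order across the 28 d hearts.

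**Figure D4:**
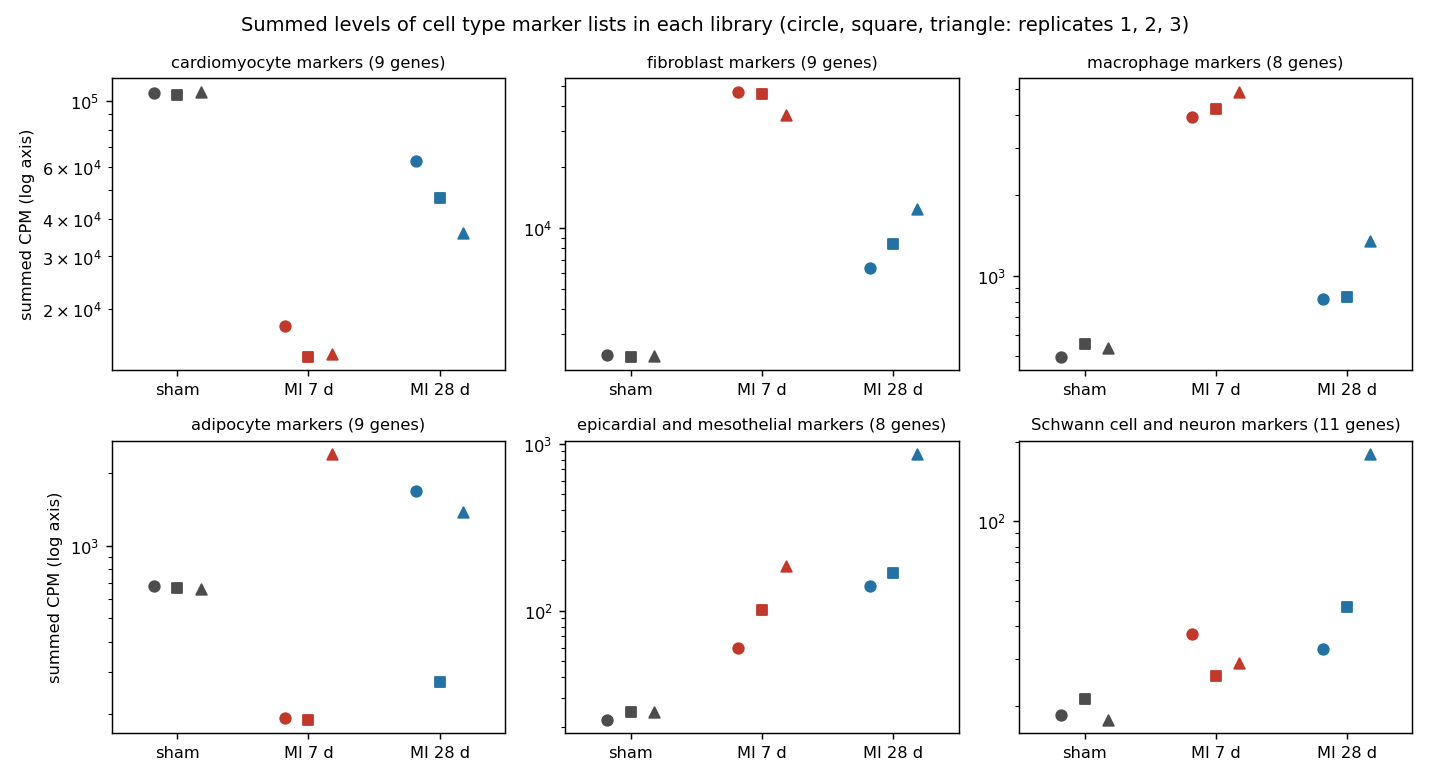
Summed CPM of 6 marker lists in each library, on log axes; symbols are replicates 1, 2 and 3. Fibroblast sums are 36013 to 47037 at 7 d, and MI 28 d replicate 3 (triangle) has the highest epicardial sum of all, 862.

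Imprinted genes outside the 10 did not move together. Of 64 others that were counted, 49 were tested. At 7 d 15 rose and 22 fell, with a median log2 fold change of 0.04, and at 28 d 15 rose and 13 fell, with a median of -0.13. Of all tested genes 39.0% were called higher and 35.4% lower at 7 d, and 29.5% and 25.6% at 28 d. Rises and falls were thus mixed over all genes too, and the mix is not particular to imprinted genes. Cdkn1c, the growth-restraining cell cycle inhibitor of the Kcnq1 domain, fell by 1.16 ± 0.15 at 7 d (edgeR adjusted p = 6.48e-05). Peg12 rose by 1.83 at 7 d, and Sgce and Peg10, neighbours in another domain, rose by 1.41 and 1.42. Igf2r, the maternally expressed receptor that clears IGF2, averaged 373 CPM in the sham group against 389 CPM in the 7 d group, and missed the threshold (0.06 ± 0.16, edgeR adjusted p = 0.737). It passed at 0.40 with library size alone (edgeR adjusted p = 0.0265), the scaling that raised the median of all genes by 0.33. The members were chosen with earlier results of these data known, so the contrast with the other imprinted genes is a description.

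**Figure D5:**
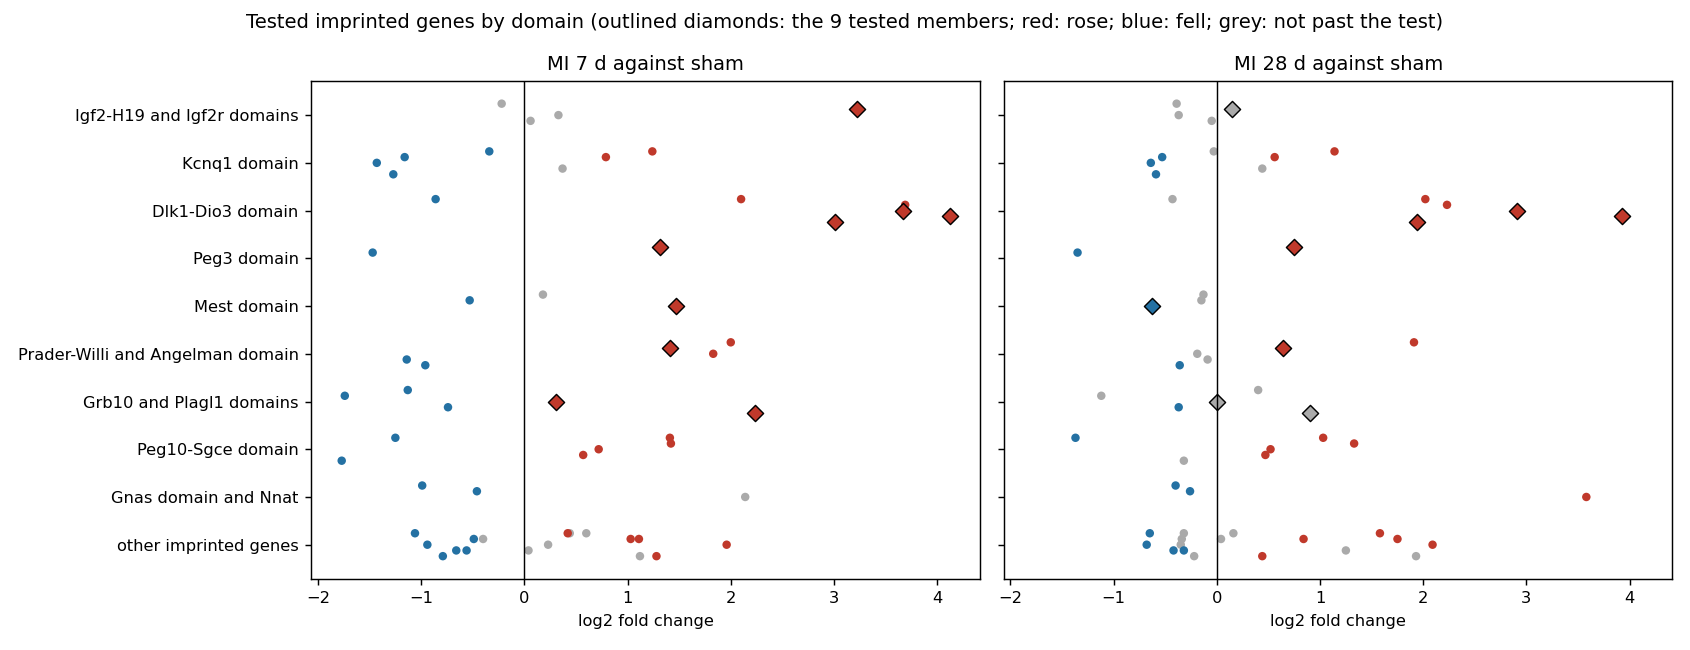
Log2 fold change of each tested imprinted gene by domain at 7 d and 28 d against sham; outlined diamonds are the 9 tested members, red rose, blue fell and grey did not pass. Most domains hold genes on both sides of 0 at 7 d, and Dlk1-Dio3 holds 3 members and Dio3 above 3.

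Genes of insulin-like growth factor signalling, which Grb10 damps, were read from a list of 22, of which 19 were tested. At 7 d 10 rose and 4 fell (median 0.63), and at 28 d 11 rose and 3 fell (median 0.75). Of all tested genes 39.0% rose and 35.4% fell at 7 d and 29.5% and 25.6% at 28 d, which is the background for each list here. Igf1, the growth factor itself, rose from 19.8 to 164 CPM at 7 d (3.05 ± 0.31, edgeR adjusted p = 1.33e-05). The binding protein gene Igfbp2 rose by 5.68 and the binding protein proteases Pappa2 and Pappa by 4.98 and 3.92. Insr, the insulin receptor, fell by 1.47, and Grb14, the adaptor most like Grb10, fell by 2.09 ± 0.20 (edgeR adjusted p = 7.21e-06), so the 2 adaptors moved in opposite directions. At 28 d Grb14 was still 1.16 below sham.

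A list of factors that set or keep imprints held 15 genes, of which 13 were tested. Among them 7 rose and 1 fell at 7 d, and 3 rose and 1 fell at 28 d, with medians of 0.29 and 0.10. Zfp57, a zinc finger protein that binds the methylated hexamer TGCCGC at imprinted control regions, rose from 1.87 to 15.1 CPM at 7 d (3.01 ± 0.44, edgeR adjusted p = 0.000166). Uhrf1, which brings the maintenance methyltransferase to replicated DNA, rose by 2.18, while Zfp445 fell by 0.37 and lost that call with library size alone (-0.04, edgeR adjusted p = 0.738). Of 14 genes of the Notch pathway, whose ligands Dlk1 resembles, 13 were tested, with 4 rises and 3 falls at 7 d (median -0.11) and 2 rises and 6 falls at 28 d (median -0.35), and the same shares of all genes apply. Notch2 and Jag1 rose by 1.57 and 1.12, and Notch1 and Jag2 fell by 1.07 and 1.69.

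The promoters of the members were searched for that hexamer on both strands (TGCCGC, or GCGGCA as its reverse complement). RefSeq promoters, 250 bases before to 50 after a start, were found for 9 members (13 entries). The hexamer was in the promoters of 4 of these 9 members, Mest, Plagl1, Grb10 and Meg3, and in those of 13.1% of all 27025 genes (11.6% of 32851 entries). Mest holds it in 2 entries that are nearly the same window. The other motif searched, GGGGCCCC, was in Peg3 only and in 1.08% of all promoters. Shown are a maternal member that stayed high (Meg3, chr12:109540746-109541045, plus strand), the member that turned below sham (Mest, chr6:30737800-30738099, plus strand) and the factor Plagl1 (chr10:13090582-13090881, plus strand), on GRCm38, with the hexamer in capitals.
Meg3 promoter: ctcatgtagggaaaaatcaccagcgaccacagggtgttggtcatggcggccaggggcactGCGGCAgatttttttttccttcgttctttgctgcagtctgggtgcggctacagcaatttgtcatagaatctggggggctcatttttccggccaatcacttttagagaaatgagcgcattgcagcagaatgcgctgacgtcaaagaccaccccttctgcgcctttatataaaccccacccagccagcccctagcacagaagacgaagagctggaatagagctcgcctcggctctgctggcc
Mest promoter: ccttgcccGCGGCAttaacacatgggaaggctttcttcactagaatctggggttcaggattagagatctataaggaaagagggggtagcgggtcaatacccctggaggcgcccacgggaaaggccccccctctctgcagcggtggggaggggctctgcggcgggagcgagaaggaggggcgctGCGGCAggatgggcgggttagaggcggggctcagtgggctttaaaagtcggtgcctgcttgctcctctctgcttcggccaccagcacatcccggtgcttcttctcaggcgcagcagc
Plagl1 promoter: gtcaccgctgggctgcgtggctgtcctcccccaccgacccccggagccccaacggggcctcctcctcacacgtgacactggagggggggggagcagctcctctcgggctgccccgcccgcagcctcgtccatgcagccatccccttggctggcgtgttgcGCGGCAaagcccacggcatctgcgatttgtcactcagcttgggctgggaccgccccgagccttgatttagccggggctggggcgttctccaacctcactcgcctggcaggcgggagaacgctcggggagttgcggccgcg
The Mest entry holds the letters at 2 places and the others at 1. Its GC content is 62.7% with 17 CpG sites, that of Plagl1 70.7% with 26 and that of Meg3 53.7% with 13, beside medians of 52.7% and 7.00 over all promoters. The Grb10 entry with the hexamer, not shown, has 80.0% GC and 45 CpG sites. The hexamer holds a CpG itself, and its share among promoters of like CpG content was not computed. These matches are letters in a window and no measure of binding or methylation.

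For each tested member the 3 tested genes with the most similar pattern were found, leaving out symbols of the Gm and Rik forms. Similarity was the root-mean-square difference of centred log2 CPM over the 9 libraries, so the genes compared share libraries and depth. Rian was nearest to Igf1 (0.15), then Tro and Stxbp2. Meg3 was nearest to Zfp185 (0.16), Ikbke and Olfml2b, and Mirg to Mgp (0.17), Loxl4 and Cxcr6. Mest was nearest to Dtx4 (0.16), Gpr137b-ps and Sel1l3, Ndn to Rpl22l1 (0.10), Oas1a and Tmem165, and Peg3 to Elf4, Pld2 and Zfp760 (0.15 each). Plagl1 was nearest to Zfp469, Adamts6 and Gas2l3, and Grb10 to Setd5 (0.05), Dcaf12 and Zfp33b. H19 had no close match by this measure among the genes searched, its nearest being Fam83f at 0.60, then Wnt16 and Tmem121. Among members Peg3 and Ndn were closest to each other (0.36), then Meg3 and Rian (0.43), Peg3 and Grb10 (0.47) and Meg3 and Mirg (0.48), whereas Meg3 and Mest were 1.49 apart. This difference is not scaled by the size of a change, and Pearson correlation gave another order. It was highest for Meg3 and Rian (0.98), then Meg3 and Mirg and Rian and Ndn (0.96 each). For Peg3 and Ndn it was 0.81, for Peg3 and Grb10 0.77 and for Meg3 and Mest 0.40.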

How the data were processed

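The values are counts deposited by the authors, whole-number reads per gene symbol in 1 table of 9 libraries. The submitters' processing notes name Trim Galore, STAR, featureCounts and the mm10 build, without versions, annotation or strand setting. A KAPA kit turned total RNA into libraries, per the labels' protocols. Groups came from the sample titles.

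With filterByExpr by group (count 10, total 15) 14347 genes were kept, scaled by TMM and tested in edgeR 4.0.16 (R 4.3.3) by the two-sided quasi-likelihood test in a means model over all 9 libraries, with Benjamini-Hochberg adjustment at 0.05. "Rose" and "fell" refer to this. Standard errors divide the size of the log2 fold change by the root of F. Ratios used counts plus 0.5 and exact permutation tests. The script was tested on simulated data. Coordinates, miRNAs and promoters are from RefSeq on GRCm38, which is the mm10 assembly. RefSeq held 24345 of the 24964 symbols.

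The members and lists were chosen with earlier results of these data known. All members are named; of each other list, up to 4 of its largest rises and falls among called genes could be named, and Igf2 and Igf2r were named besides. Alternatives were DESeq2 1.42.0, its size factors, scaling to library size alone, the filter left off or made stricter, only the compared libraries, a replicate block, limma 3.58.1 voom with group weights, and leaving out each library or the 3 Adipoq-rich ones. The series' design names 3 mice in each group.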

Additional observations from a re-analysis of the deposited data

Results flagged for a closer look

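The 7 d and 28 d effects of 7 genes differed from each other by the direct test of 28 d against 7 d, which is also the difference between both effects against the shared sham libraries. The log2 differences were -3.06 for H19, -2.10 for Mest, -1.33 for Plagl1, -1.06 for Rian, -0.77 for Ndn, -0.56 for Peg3 and -0.31 for Grb10. The level was lower at 28 d for each of them. For Mest the effects against sham had opposite signs, and both passed the edgeR test.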

How the results depend on the processing

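Limits: with 3 hearts a group the exact tests of ratios cannot go below 0.10, and the sham values of Mirg and Dlk1 rest on 4 counts each. Leaving out the Adipoq-rich libraries leaves 1 heart at 28 d, which is then assumed to vary like the others. Under the alternatives 376 fold changes of members kept their direction and side of the threshold, 15 lost their call and 10 gained one. The 1 other was Grb10 at 28 d, which had no call to reverse. Its -0.00 became 0.24 and gained a call with library size alone.

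The count of members that rose at 28 d, 5, ranged from 3 to 6 when each library was left out, with 3 without sham replicate 1 and without MI 28 d replicate 3. At 7 d it stayed at 9 in every such fit and was 10 with no filter and 8 with the stricter filter. With library size alone Grb10 at 28 d was 0.24 in place of -0.00, and calls over all genes were split 7410 higher to 3587 lower at 7 d and 6479 to 2278 at 28 d, against 5602 to 5074 and 4233 to 3673 with TMM. Mirg to Meg3 at 7 d was 0.63 with an offset of 0 and -0.67 with 2, and at 28 d 0.06 with 2. Mirg to Rian at 7 d was 1.28 with 0 and -0.01 with 2, and at 28 d 0.98 with 2; these rest on 4 sham counts. H19 to Igf2 at 28 d was 0.75 without the Adipoq-rich libraries, and the cause was not tested. An offset of 0 gives no Dlk1 ratio where a sham count is 0.

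The labels do not say that replicate numbers pair the hearts. Deviations of same-numbered libraries correlated at -0.0909, 0.262 and 0.304 between 28 d and 7 d and at -0.0245 to 0.021 against sham. Between 28 d and 7 d the same-numbered library was the best match for replicates 2 and 3, and against sham for replicate 1 only. Whether the numbers mark a shared step was not tested. With the replicate block 9 members rose at 7 d, 6 rose at 28 d (Plagl1 added, 0.86) and 8 fell from 7 d to 28 d (Meg3 added, -0.89).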
